A study of Oryza sativa with 6 samples.

Results

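In rice inflorescences that carry the sro mutation, the endoglucanase genes GLU13, Cel9E and GLU8 fell 1.80-fold, 1.69-fold and 1.62-fold against wild type (log2 changes of -0.85, -0.76 and -0.69 with SE of 0.17, 0.09 and 0.19, 3 arrays per group). The mixed-linkage glucan synthase gene CSLF6 fell 1.78-fold and the secondary wall cellulose synthase gene CESA4 fell 1.35-fold on the brighter of its 2 probe sets, while the other, about as bright, did not pass the test (log2 change -0.10, adjusted p = 0.477). CESA2 rose 1.81-fold from a wild type level not far above control probe sets, with sro arrays that lay far apart. CSLA9, a mannan synthase gene, rose 1.25-fold. The calls of GLU8, CSLF6 and CESA2 were lost in 5 of the 6 fits with 1 array fewer. No other measured gene of these families that passed the test and stood above the level of control probe sets changed by more than 1.39-fold. The genes were found by symbol or synonym in the RefSeq gene table. Names taken were CESA (cellulose synthase) or GLU with a number, CSL (cellulose synthase-like) with a letter and number, and Cel9 with a letter. GLU genes were taken as the endoglucanase series by symbol alone, since that table holds no descriptions. It also lists a Cel9 name for GLU1, GLU5 and GLU14, but not for GLU8 or GLU13. The rule found 49 genes, and 42 of them had a probe set naming that gene alone, out of 17905 genes measured in this way. Where a gene had several probe sets (7 genes), the brightest by mean over the 6 arrays was used.

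Cellulose is spun into the wall by plasma membrane complexes of CESA subunits. In rice and other flowering plants one set of subunits serves the thin primary walls of growing cells, and another serves the thick secondary walls of vessels and fibres. The related CSL enzymes make the backbones of hemicelluloses, the polysaccharides that coat or link cellulose. Endoglucanases of glycoside hydrolase family GH9 cut glucan chains, and some act at the membrane during cellulose synthesis. Young inflorescences hold mostly meristems and small growing organs, whose cells have primary walls.

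Each of the 6 arrays was hybridised with RNA from separately collected inflorescences of 4 to 5 mm from paddy-grown plants, 3 carrying the sro mutation and 3 being wild type (Japonica variety 9522). At this length most spikelets have begun stamens and carpels, and SRO is at its peak of expression, per the labels. The allele and the number of lines behind sro are not described in the labels used here, no table used here names SRO, and the mutated gene was therefore not checked. Values are deposited log2 intensities per probe set, and a level is not comparable between probe sets. In whole inflorescences, fewer cells of a type and less RNA per cell cannot be told apart. Array medians lay between 5.26 and 5.31, and arrays correlated at 0.997 to 0.998 within a genotype and at 0.992 to 0.994 between genotypes. The dap labelling spike, added to follow the labelling reaction and read at its 5 prime end, stood apart in sro. It had log2 values of 10.31, 7.95 and 9.48 in sro replicates 1, 2 and 3, against 7.59, 7.55 and 7.77 in wild type replicates 1, 2 and 3. The 3 prime minus 5 prime log2 signal of the rice actin control was 4.46, 4.94 and 4.90 in sro, against 5.13, 5.24 and 5.17 in wild type. That of the GAPDH control was 1.29, 1.63 and 1.37 in sro, against 1.64, 1.66 and 1.65 in wild type. These signs of RNA or labelling quality thus moved with genotype, without overlap between the groups (narrowly so for GAPDH), and their part in the changes below was not tested. The meristem gene OSH1, a KNOX homeobox gene, lay between 11.78 and 11.82 in sro and between 11.90 and 12.19 in wild type, above the control level on every array.

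Of the 42 measured genes, 13 passed the test (limma, adjusted p under 0.05 over all 57258 probe sets), which is 31%. Over all 17905 genes with 1 probe set each, 26.6% passed under the same adjustment. By direction, 10 of the 42 fell (23.8%, against 19.4% of all genes) and 3 rose (7.14%, against 7.28%). Taken over all 42, each share was close to that of all genes. The median log2 change was -0.13 over the 42 genes and -0.06 over all genes. Over all probe sets, with or without a gene name, 14.6% passed, 9.04% lower and 5.59% higher. The sro and wild type values did not overlap, with sro lower, for 17 of the 42 genes, against 35.8% of all genes. They did not overlap, with sro higher, for 6 of the 42, against 17.5% of all genes (53.3% in either direction). All 13 changes were below 2-fold. In 12 of the 42 genes both groups averaged below the mean of the 10 control probe sets for the fungus Magnaporthe (4.69 in sro and 4.65 in wild type), and no fold is given for these. The same held for 2540 of all 17905 genes, a smaller part. Of the 30 remaining members 12 passed (40%), 10 lower (33.3%) and 2 higher (6.67%). Matching shares for the 15365 genes above the control level were not computed, so these have no exact like value beside them. At most 4768 of those genes passed, 3465 lower and 1303 higher, since these are the counts over all 17905 genes. CESA4 (on its brighter probe set), CSLA9, CSLC2, CSLE1, Cel9E and GLU13 passed the test whichever single array was left out. The other 7 lost it in at least 3 of the 6 such fits. With sro represented by replicate 2 alone, the sro array whose dap spike was closest to wild type, all 13 kept their direction. That outcome was fixed, because their groups did not overlap. In that fit the spread came from the 3 wild type arrays alone and the lone sro array was assumed to vary like them. Few calls could be made in it, and a call lost there does not show a smaller change.

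**Figure D1:**
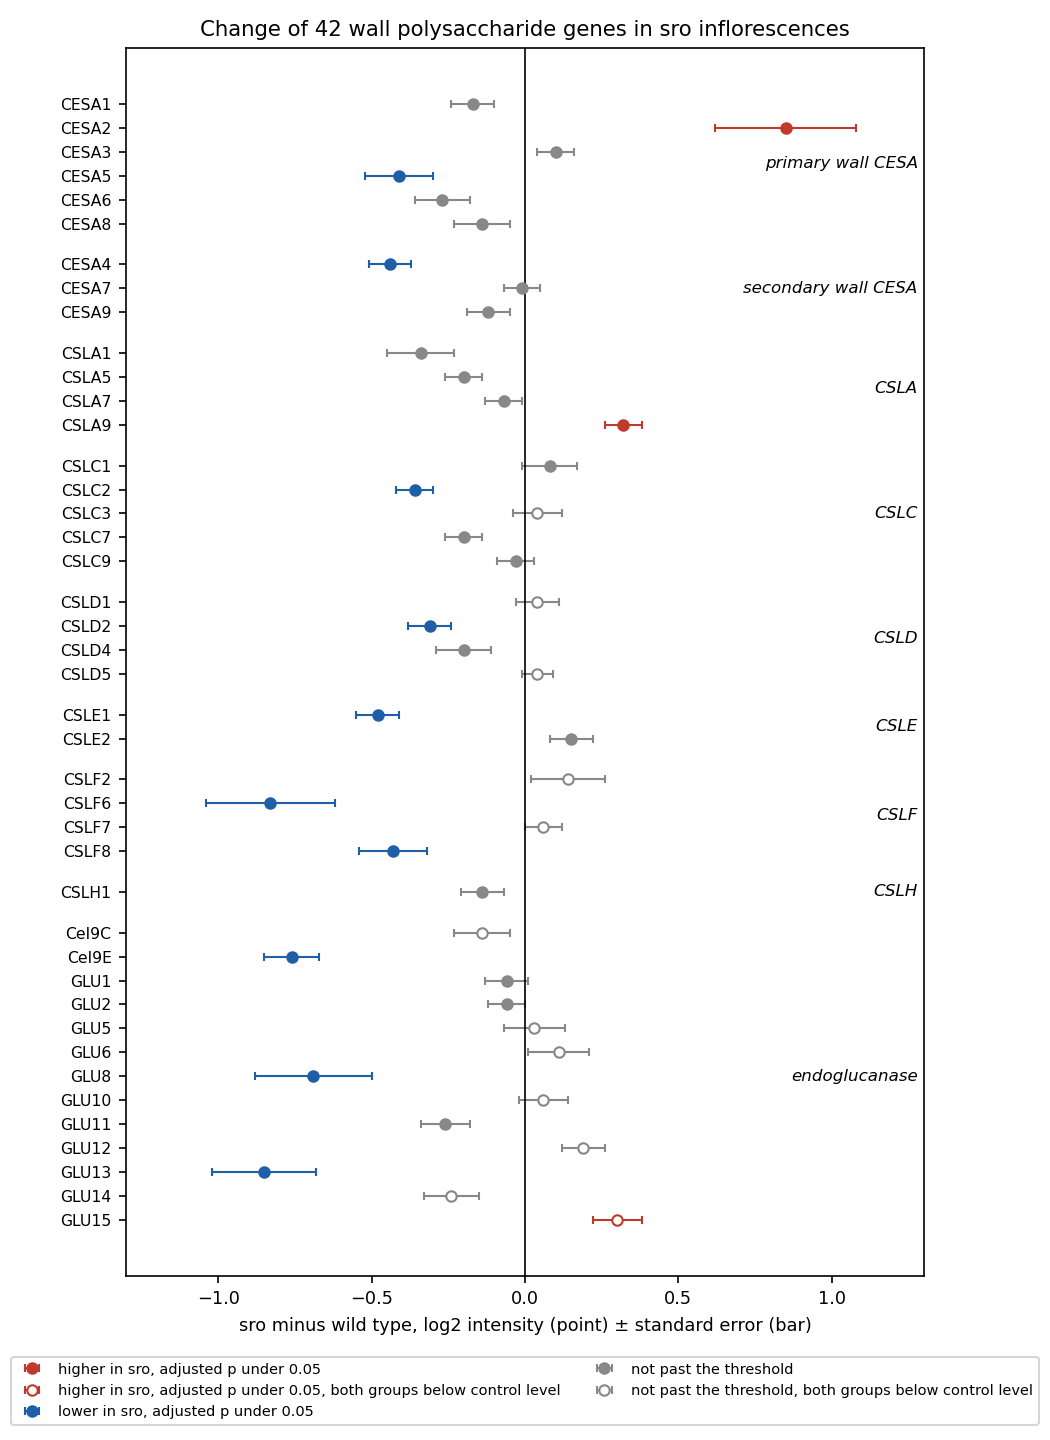
The log2 change of each of the 42 measured genes (horizontal axis, sro minus wild type, in log2 units, with standard error from limma), grouped by family from top to bottom. Blue points are the 10 genes lower in sro, red points the 3 higher, and open points the 12 genes below the control level in both groups. Changes run from -0.85 (GLU13) to 0.85 (CESA2).

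Among the primary wall CESA genes (CESA1, CESA2, CESA3, CESA5, CESA6 and CESA8), CESA5 fell, CESA2 rose and 4 did not pass the test. CESA5 (LOC4334710, chromosome 3) had log2 levels of 10.92, 10.87 and 10.90 in sro, against 11.05, 11.50 and 11.36 in wild type. The groups did not overlap, and the sro arrays lay within 0.05 of one another while the wild type arrays spanned 0.45. CESA5 fell by 0.41 on the log2 scale (SE 0.11, adjusted p = 0.0402). On leaving out wild type replicate 1 the change was -0.53 (adjusted p = 0.00569), and removing any other single array ended the call (-0.42 to -0.31, adjusted p from 0.0844 to 0.125). CESA6 (LOC4342850, chromosome 7) had levels of 10.61, 10.58 and 10.60 in sro, against 10.67, 11.04 and 10.89 in wild type. Its wild type arrays stood in the same order as those of CESA5, with replicate 2 highest and replicate 1 lowest. The log2 change of CESA6 was -0.27 (SE 0.09, adjusted p = 0.0959), and it passed the test only without wild type replicate 1 among the fits with 1 array fewer (-0.37, adjusted p = 0.0219).

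CESA2 (LOC4334515, chromosome 3) had levels of 6.33, 5.25 and 5.85 in sro replicates 1, 2 and 3, against 4.96, 4.93 and 4.98 in wild type. Every sro array was higher than every wild type array, but the sro arrays spanned 1.09 while the wild type arrays spanned 0.05. CESA2 rose by 0.85 (SE 0.23, adjusted p = 0.0433). The wild type mean of 4.96 was not far above the control level of 4.65, so the rise was measured from near background. Its order among the sro arrays was that of the dap spike (10.31, 7.95 and 9.48), a match seen in the data, and the part of labelling in the change was not tested. This order in sro was held by 7 of the 30 members above the control level (23.3%), against 12.7% of the 15365 genes above it. The reverse order, with sro replicate 2 highest and replicate 1 lowest, was also held by 7 of the 30 (23.3%), against 33.6% of those genes. The level of sro replicate 2 minus the wild type mean was 0.29. Removing sro replicate 1 gave 0.59 (adjusted p = 0.0701), and removing sro replicate 2 gave 1.13 (adjusted p = 0.00454). It also missed the threshold without sro replicate 3 or any 1 wild type array (0.83 to 0.87, adjusted p from 0.0983 to 0.117). A second CESA2 probe set had 4.66, 4.79 and 4.81 in sro, against 4.81, 4.82 and 4.21 in wild type, and its log2 change was 0.14 (adjusted p = 0.598). It averaged 4.76 in sro and 4.61 in wild type, about the control level (4.69 in sro and 4.65 in wild type). This second probe set thus gave no support to the rise, and so near the control level it could show little. Replicate 1, the highest sro array on the first probe set, was the lowest on the second.

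CESA1 (LOC4337958, chromosome 5) had levels of 11.21, 11.21 and 11.22 in sro, against 11.45, 11.26 and 11.42 in wild type (log2 change -0.17, adjusted p = 0.151). A dimmer CESA1 probe set, below the control level in both groups, had a change of 0.19 (adjusted p = 0.145). CESA8 (LOC4342699, chromosome 7) had levels of 9.89, 9.82 and 9.93 in sro, against 10.17, 9.85 and 10.04 in wild type (log2 change -0.14, adjusted p = 0.338). In CESA8 and the brighter CESA1 probe set, wild type replicate 1 was the highest array and wild type replicate 2 the lowest of its group, the reverse of CESA5 and CESA6. CESA3 (LOC4343049, chromosome 7) had levels of 11.58, 11.61 and 11.59 in sro, against 11.52, 11.44 and 11.52 in wild type (log2 change 0.10, adjusted p = 0.292). A second, dimmer CESA3 probe set had 6.43, 5.96 and 6.21 in sro, against 5.62, 5.69 and 5.74 in wild type. That probe set rose by 0.52 (adjusted p = 0.0207), and its sro arrays also stood in the order of the dap spike. Averaged over the 6 genes, the primary wall CESA probe sets had log2 levels of 10.09, 9.89 and 10.01 in sro, against 9.97, 10.01 and 10.04 in wild type, and these overlapped. A mean of the 5 others, with CESA2 left out after its values were seen, was also taken. It was 10.84, 10.82 and 10.85 in sro, against 10.97, 11.02 and 11.05 in wild type, which did not overlap. Leaving out the only called rise favours that outcome, so no conclusion is drawn from it. Among all genes taken singly, 53.3% had groups that did not overlap, with sro higher or lower.

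The secondary wall subunits CESA4, CESA7 and CESA9 are each needed for stiff culms in rice, where their loss gives brittle stems. CESA4 (LOC4324625, chromosome 1) had levels of 6.61, 6.69 and 6.67 in sro, against 7.17, 6.98 and 7.13 in wild type. All sro arrays were lower than all wild type arrays, and both groups were tight. CESA4 fell by 0.44 (SE 0.07, adjusted p = 0.00508), and with 1 array fewer by between 0.40 and 0.49 on the log2 scale (largest adjusted p = 0.0248). A second CESA4 probe set had 6.85, 6.67 and 6.61 in sro, against 6.82, 6.88 and 6.72 in wild type, which overlapped (log2 change -0.10, adjusted p = 0.477). With the 2 probe sets averaged the change was -0.27 (adjusted p = 0.0205). CESA7 (LOC4348853, chromosome 10) had levels of 5.16, 5.14 and 5.10 in sro, against 5.19, 5.18 and 5.05 in wild type (log2 change -0.01, adjusted p = 0.962). CESA9 (LOC4347093, chromosome 9) had levels of 5.26, 5.37 and 5.50 in sro, against 5.53, 5.50 and 5.46 in wild type (log2 change -0.12, adjusted p = 0.346). The fall of CESA4 was thus not matched by a called change in either other secondary wall subunit, and the difference between them was not tested. Measured marker genes of lignin and secondary walls numbered 13, among them the lignin genes CAD2, CAD7, 4CL3 and 4CL5 and a set of laccase genes. Of these, 0 passed the test in limma, against 26.6% of all genes. An unadjusted p under 0.05 was seen in 5 of the 13, not a larger part than the 7963 of all 17905 genes. The summed level of the 13 markers lay between 10.03 and 10.09 in sro and between 9.95 and 10.08 in wild type on the log2 scale. Both groups were below the control level in 7 of the 13. The sum adds unlogged intensities and was set mostly by CAD2, by far the brightest (mean 9.58 in sro and 9.51 in wild type). It therefore says little of the other markers.

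Mixed-linkage glucan, a hemicellulose typical of grasses and their relatives, is made by CSLF enzymes, of which CSLF6 is the main one in rice, and CSLH1 makes it in barley. CSLF6 (LOC4344719, chromosome 8) had levels of 7.86, 7.89 and 7.95 in sro, against 8.19, 9.17 and 8.84 in wild type. The sro arrays lay within 0.09 of one another and below all wild type arrays, which spanned 0.98. CSLF6 fell by 0.83 (SE 0.21, adjusted p = 0.0358). The fall was larger without wild type replicate 1 (-1.10, adjusted p = 0.00169), and it missed the threshold whichever other array was left out (-0.85 to -0.61, adjusted p from 0.0655 to 0.12). The 2 other CSLF6 probe sets lay below the control level in both groups (log2 changes of 0.17 and 0.07, adjusted p = 0.325 and 0.659), and with all 3 averaged the change was -0.20 (adjusted p = 0.249).

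CSLF8 (LOC4343552, chromosome 7) had levels of 6.21, 6.04 and 6.12 in sro, against 6.42, 6.42 and 6.81 in wild type. It fell by 0.43 (SE 0.11, adjusted p = 0.0393), a call that was lost once sro replicate 1, 2 or 3 (-0.47, -0.39 and -0.43, adjusted p = 0.0698, 0.114 and 0.107) or wild type replicate 3 (-0.30, adjusted p = 0.0533) was removed. CSLF8 lies in a run of CSLF genes on chromosome 7, in the order CSLF9, CSLF8, CSLF2, CSLF4 and CSLF3, with at most 2 other annotated genes between neighbours. Of these, CSLF9, CSLF4 and CSLF3 had no probe set of their own, and CSLF2 was below the control level in both groups (log2 change 0.14, adjusted p = 0.491), as was CSLF7 on chromosome 10 (0.06, adjusted p = 0.561). CSLH1 (LOC4348359, chromosome 10) had levels of 9.87, 9.89 and 9.87 in sro, against 9.89, 10.10 and 10.07 in wild type (log2 change -0.14, adjusted p = 0.226). The wild type arrays of CSLH1 stood in the order of those of CSLF6, CESA5 and CESA6, with replicate 2 highest and replicate 1 lowest, over a range of 0.21.

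**Figure D2:**
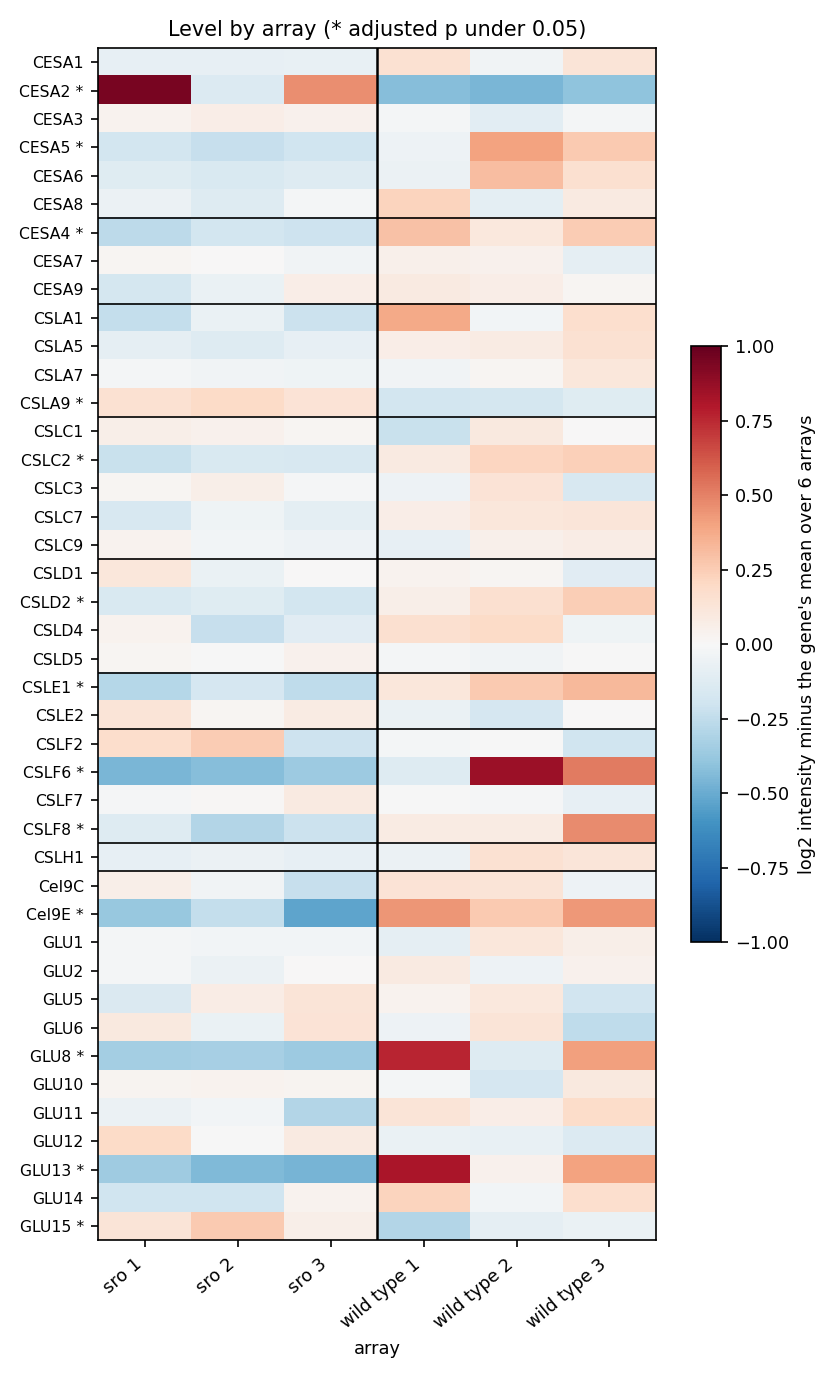
Level of each of the 42 genes on each array (columns, sro left and wild type right), drawn as the log2 intensity minus the gene's mean over the 6 arrays, with families separated by lines and called genes starred. CESA2 is high on sro replicates 1 and 3, GLU8 and GLU13 are highest on wild type replicate 1, and CSLF6 and CESA5 are highest on wild type replicate 2.

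CSLA enzymes make the backbone of mannans and glucomannans. CSLA9 (LOC4341571, chromosome 6) had levels of 10.90, 10.94 and 10.88 in sro, against 10.56, 10.57 and 10.62 in wild type. Both groups were tight and apart, and CSLA9 rose by 0.32 (SE 0.06, adjusted p = 0.0077), with changes of 0.31 to 0.34 when 1 array was left out (largest adjusted p = 0.0342). The 3 other measured CSLA genes had negative changes that did not pass the test. CSLA1 (LOC4328585, chromosome 2), which the gene table also lists as CSLA9, had levels of 7.92, 8.09 and 7.94 in sro, against 8.53, 8.13 and 8.32 in wild type (log2 change -0.34, adjusted p = 0.0685). CSLA5 had levels of 9.11, 9.07 and 9.12 in sro, against 9.27, 9.28 and 9.35 in wild type (log2 change -0.20, adjusted p = 0.0518), and CSLA7 changed by -0.07 on the log2 scale (adjusted p = 0.535). CSLA3 and CSLA4 had no probe set of their own.

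CSLC enzymes make the glucan backbone of xyloglucan, as shown in Arabidopsis. CSLC2 (LOC4347118, chromosome 9) had levels of 5.95, 6.02 and 6.01 in sro, against 6.26, 6.39 and 6.41 in wild type. It fell by 0.36 (SE 0.06, adjusted p = 0.00883), and by between 0.33 and 0.41 with 1 array fewer. CSLC1 and CSLC9 had log2 changes of 0.08 (adjusted p = 0.577) and -0.03 (adjusted p = 0.821), and the sro arrays of each lay inside the range of its wild type arrays. CSLC7 had levels of 7.66, 7.78 and 7.72 in sro, against 7.89, 7.93 and 7.94 in wild type (log2 change -0.20, adjusted p = 0.0641). CSLC3 was below the control level in both groups.

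CSLD enzymes are related most closely to CESA and are known for tip-growing cells, and rice CSLD4 is needed for normal leaf width and plant height. CSLD2 (LOC4339895, chromosome 6) had levels of 8.59, 8.62 and 8.56 in sro, against 8.80, 8.90 and 8.99 in wild type. It fell by 0.31 (SE 0.07, adjusted p = 0.0188), and missed the threshold without sro replicate 1 (-0.31, adjusted p = 0.0592), sro replicate 3 (-0.29, adjusted p = 0.0805) or wild type replicate 3 (-0.26, adjusted p = 0.0564). CSLD4 (LOC107276048, chromosome 12) had levels of 6.56, 6.29 and 6.41 in sro, against 6.68, 6.71 and 6.48 in wild type, which overlapped (log2 change -0.20, adjusted p = 0.191). CSLD1, which acts in root hair growth, and CSLD5 were below the control level in both groups.

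CSLE genes are a further branch of the family. CSLE1 (LOC4347370, chromosome 9) had levels of 7.03, 7.15 and 7.06 in sro, against 7.43, 7.58 and 7.64 in wild type. It fell by 0.48 (SE 0.07, adjusted p = 0.00481), and by between 0.43 and 0.54 with 1 array fewer, without overlap between the groups. Its neighbour on the chromosome, CSLE6, had no probe set of its own. CSLE2 (LOC4330583, chromosome 2) had levels of 9.95, 9.84 and 9.90 in sro, against 9.75, 9.65 and 9.82 in wild type (log2 change 0.15, adjusted p = 0.178). A second CSLE2 probe set rose by 0.38 (adjusted p = 0.0115) and another had a log2 change of 0.02 (adjusted p = 0.911), so that the CSLE2 probe sets disagreed in size.

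Of 13 measured endoglucanase genes, 3 fell (23.1%, against 19.4% of all genes), 1 rose (7.69%, against 7.28%) and 9 did not pass the test, shares close to those of all genes. Both groups averaged below the control level in 7 of the 13, among them the gene that rose, GLU15. Cel9E (LOC4330637, chromosome 2) had levels of 7.77, 7.91 and 7.62 in sro, against 8.59, 8.41 and 8.58 in wild type. The highest sro array minus the lowest wild type array was -0.50, and Cel9E fell by 0.76 (SE 0.09, adjusted p = 0.00154). With 1 array fewer it fell by between 0.69 and 0.83 (largest adjusted p = 0.00965). GLU13 (LOC4340679, chromosome 6) had levels of 10.16, 10.07 and 10.05 in sro, against 11.33, 10.56 and 10.92 in wild type. It fell by 0.85 (SE 0.17, adjusted p = 0.013), by 0.65 without wild type replicate 1 and by 1.04 without wild type replicate 2.

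GLU8 (LOC4327286, chromosome 1) had levels of 9.00, 9.01 and 8.98 in sro, against 10.10, 9.21 and 9.75 in wild type. As in GLU13, the sro arrays lay close together and below a wild type group in which replicate 1 was highest and replicate 2 lowest. GLU8 fell by 0.69 (SE 0.19, adjusted p = 0.0473), and by 0.93 without wild type replicate 2 (adjusted p = 0.00269). It missed the threshold whichever other array was left out, at a change of -0.49 without wild type replicate 1 (adjusted p = 0.0855) and of -0.70 to -0.66 without the others (adjusted p from 0.105 to 0.142). GLU15 had levels of 4.19, 4.32 and 4.12 in sro, against 3.77, 3.97 and 3.99 in wild type. It passed the test narrowly (log2 change 0.30, adjusted p = 0.0498) with both groups below the control level, and missed it whichever array was left out (0.23 to 0.35, adjusted p from 0.0683 to 0.141).

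GLU1 (LOC4332724, chromosome 3), a membrane endoglucanase that acts in cellulose synthesis and internode growth in rice, had levels of 11.36, 11.35 and 11.35 in sro, against 11.29, 11.49 and 11.44 in wild type. The groups overlapped and the log2 change was -0.06 (SE 0.07, adjusted p = 0.645). GLU2 had levels of 9.81, 9.77 and 9.83 in sro, against 9.92, 9.78 and 9.87 in wild type (log2 change -0.06, adjusted p = 0.606). GLU11 had levels of 5.40, 5.43 and 5.17 in sro, against 5.59, 5.53 and 5.64 in wild type (log2 change -0.26, adjusted p = 0.0804). The uncalled genes below the control level were Cel9C, GLU5, GLU6, GLU10, GLU12 and GLU14, with log2 changes from -0.24 (GLU14) to 0.19 (GLU12). A second, dimmer GLU12 probe set, also below that level, had a change of -0.28 (adjusted p = 0.0244), opposite in sign to the first. GLU3, which acts in root elongation in rice, had no probe set of its own.

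**Figure D3:**
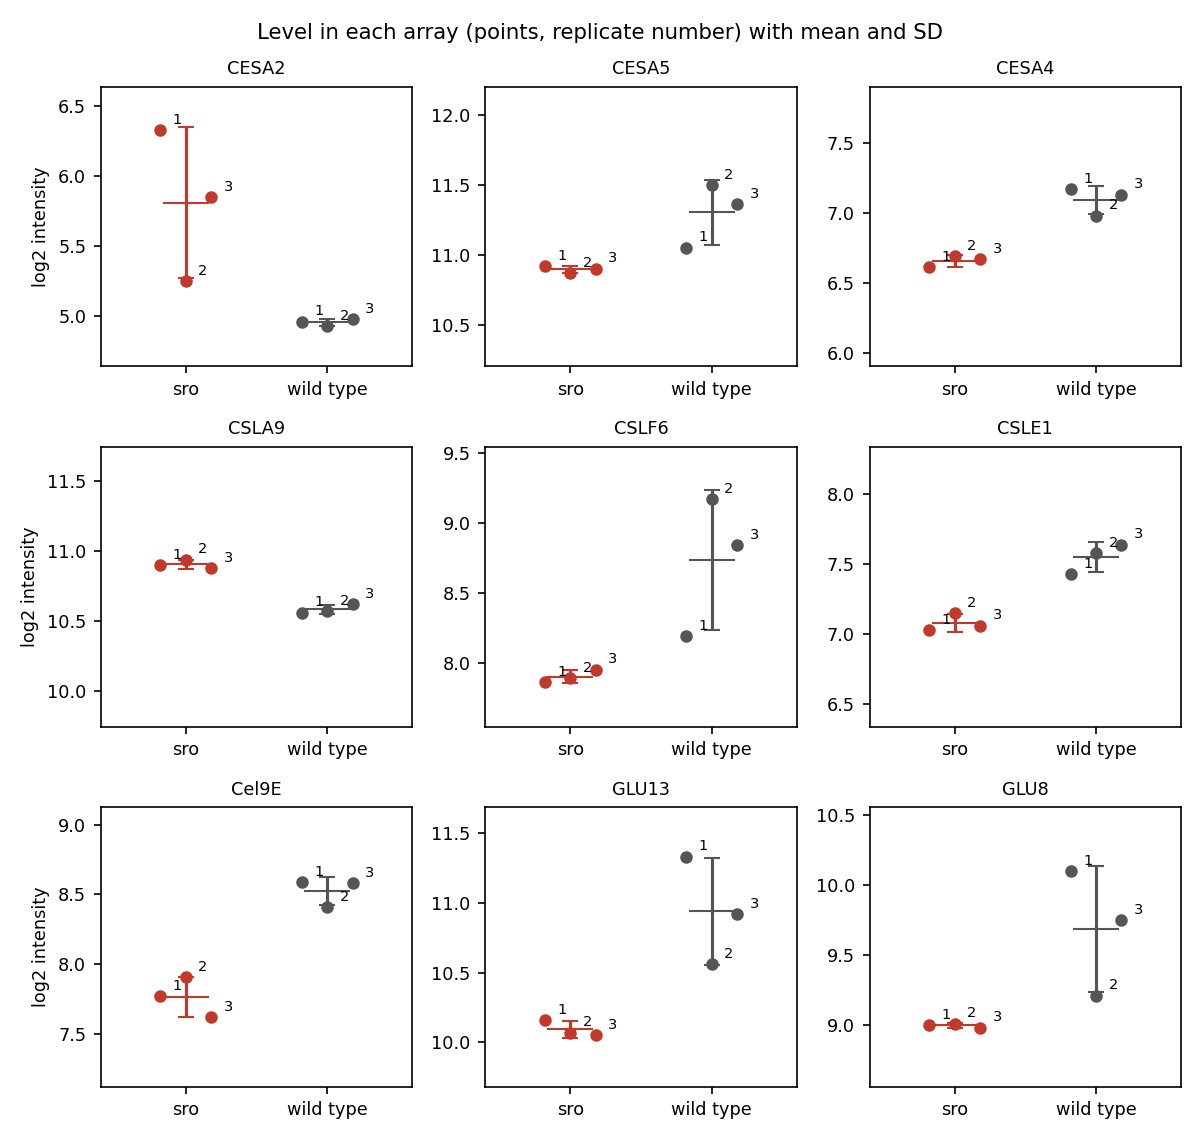
Log2 intensity of 9 genes on each array (points, numbered by replicate), sro left and wild type right, with the mean and SD of 3 arrays per group. All panels span 2 log2 units. The sro arrays of GLU8 (8.98 to 9.01), CESA5 and CSLF6 lie close together while their wild type arrays spread, and CESA2 shows the reverse.

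The wild type arrays differed from one another in a way that ran in opposite directions in different genes. Of the 30 genes above the control level in at least 1 group, 8 had wild type replicate 1 highest and replicate 2 lowest, and 6 had replicate 2 highest and replicate 1 lowest. These shares, 26.7% and 20%, compare with 21.7% and 19.6% of the 15365 genes above that level. The first order held GLU8, GLU13, Cel9E, GLU2, CSLA1, CESA1, CESA4 and CESA8, with replicate 1 minus replicate 2 at 0.89 in GLU8 and 0.77 in GLU13. The second order held CSLF6, CESA5, CESA6, CSLC1, CSLH1 and GLU1, with differences of -0.98 in CSLF6 and -0.45 in CESA5. A further order, replicate 3 highest and replicate 1 lowest, held CSLA5, CSLA7, CSLA9, CSLC2, CSLC7, CSLC9, CSLD2, CSLE1 and CSLF8. These outnumbered the genes in either order above, and the share of all genes with that order was not computed. The remaining genes had other orders. The highest sro array minus the lowest wild type array was -0.20 in GLU8 and -0.24 in CSLF6. The meristem gene LAX1 had the first order with a wider range (10.07, 8.32 and 9.51 in wild type replicates 1, 2 and 3, and 7.30, 7.43 and 7.24 in sro). The tapetum lipid transfer gene OsC4 had the second (5.79, 8.61 and 7.85 in wild type, and 9.01, 9.01 and 9.02 in sro). Both genes are given for their arrays' order, which was seen in the data, and the part of such differences between wild type samples in the falls was not tested. The spread within wild type was larger than that within sro in 24 of the 30 genes (80%), against 70.3% of all genes above the level, with a median SD of 0.04 in sro and 0.10 in wild type over the 30.

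**Figure D4:**
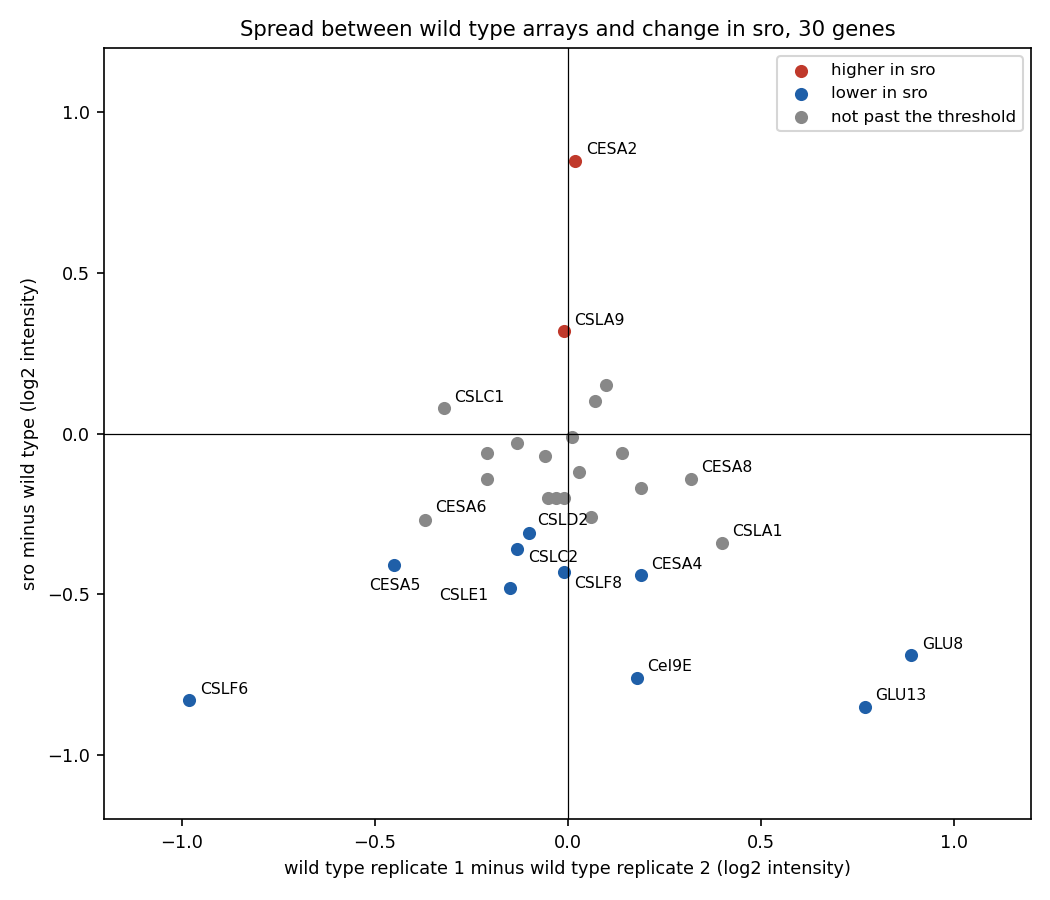
For the 30 genes above the control level, the difference between wild type replicates 1 and 2 (horizontal axis, log2 units) is set against the change in sro (vertical axis, sro minus wild type, log2 units). GLU8 and GLU13 lie at the far right and CSLF6 at the far left, all with falls of 0.69 to 0.85. CESA2 and CSLA9, the 2 called rises, lie near 0 on the horizontal axis. The called falls CSLF8, CSLD2, CSLC2, CSLE1, Cel9E and CESA4 also lie toward 0 there, from -0.15 (CSLE1) to 0.19 (CESA4).

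Other genes of wall polysaccharide synthesis, matched by symbol, gave 23 measured genes. Of these, 5 fell (21.7%, against 19.4% of all genes), 3 rose (13%, against 7.28%) and 15 did not pass the test, with a median log2 change of -0.12 against -0.06 over all genes. The pattern also took in RGP1 (LOC4346614), rgp2, BC2 and a gene on chromosome 9 listed as BC1, whose roles are not described here, and none of these 4 was called. BC1L9 (LOC4349011, chromosome 10), a COBRA-like gene, had levels of 7.77, 8.01 and 8.04 in sro, against 5.75, 5.71 and 5.96 in wild type. It rose 4.38-fold on its brightest probe set (log2 change 2.13, SE 0.10, adjusted p = 1.83e-05), more than any of the 42 genes. With all BC1L9 probe sets averaged the log2 change was smaller, at 1.49 (adjusted p = 6.49e-06). COBRA-like proteins are wall proteins that affect how cellulose is laid down, and BC1 of rice is the best known of them. BC1L2 (LOC4333115, chromosome 3), another, had levels of 9.29, 9.38 and 9.29 in sro, against 10.45, 10.03 and 10.25 in wild type, and fell by 0.93 (SE 0.10, adjusted p = 0.00117).

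UGD enzymes make UDP-glucuronic acid, from which xylose and arabinose of hemicelluloses are derived. UGD4 (LOC4352146) had levels of 8.47, 8.64 and 8.60 in sro, against 9.01, 9.24 and 9.09 in wild type, and fell by 0.54 (SE 0.08, adjusted p = 0.0039). UGD3 (LOC4334169) fell by 0.38 (adjusted p = 0.0376), and passed in only 1 of the 6 fits with 1 array fewer, that without wild type replicate 1 (-0.48, adjusted p = 0.016). In the 5 others its change lay between -0.42 and -0.29 (adjusted p from 0.0659 to 0.126). Sucrose synthases release UDP-glucose, the substrate of cellulose synthase. OsSUS1 (LOC4333062) had levels of 10.49, 10.57 and 10.52 in sro, against 11.04, 10.80 and 11.00 in wild type, and fell by 0.42 (adjusted p = 0.0101). OsSUS4 (LOC4332788) had levels of 11.03, 11.05 and 10.99 in sro, against 10.27, 10.63 and 10.50 in wild type, and rose by 0.56 (adjusted p = 0.00642). The 2 sucrose synthase genes thus moved in opposite directions.

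Some markers of other cell types passed the same test, beside 19.4% of all genes that fell and 7.28% that rose. Of 5 measured meristem markers 3 fell (LAX1, OSH6 and OSH71) and 2 did not pass, with a summed level of 12.33 to 12.36 in sro and 12.52 to 12.99 in wild type on the log2 scale. Of 8 measured epidermis markers, the Roc homeobox genes, 3 fell and 5 did not pass, with a summed level of 13.30 to 13.32 in sro and 13.44 to 13.52 in wild type. Of 4 photosynthetic leaf markers 2 fell and 2 did not pass, OsrbcS having a positive change (0.17, adjusted p = 0.246), and the summed levels of 10.07 to 10.24 in sro and 10.23 to 10.43 in wild type overlapped. Of 7 tapetum and pollen markers 3 rose (OsC6, RTS and OsRAFTIN1) and 4 did not pass, with a summed level of 11.91 to 11.93 in sro and 11.54 to 11.66 in wild type. The tapetum and pollen markers with negative changes were CYP703A3 (-0.67, adjusted p = 0.399), TDR (-0.31, adjusted p = 0.25) and MSP1 (-0.18, adjusted p = 0.0944). Each summed level adds unlogged intensities, so its brightest gene weighs most and the sum does not describe all its markers alike. That gene was MSP1 for tapetum and pollen (mean 11.21 in sro and 11.39 in wild type). For meristem it was OSH1 (11.80 and 12.05), and for leaf OsrbcS (9.91 and 9.73). Both groups averaged below the control level for 2 epidermis markers (Roc7 and Roc8), 1 leaf marker (RBCS1) and 0 meristem or tapetum markers. Their part in the changes of the wall genes was not tested.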

How the data were processed

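Biotinylated cRNA was made from 500 ng of total RNA of each of 6 rice inflorescence samples for Affymetrix arrays, per the labels' protocols. The deposited values are log2 intensities per probe set. The submitters' processing notes name RMA and Partek, with no version or order. The log2 scale was inferred from the values. RMA draws arrays to one distribution, so a change is relative to the other genes. No detection calls were used, and with 3 arrays per group the number of arrays sets the precision.

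The 123 AFFX controls were left out of the tests. Probe sets were paired with genes by the GEO platform annotation (22436 with 1 gene) and, by gene number, with RefSeq genes of the assembly named ASM3414082v1. sro was compared with wild type with limma 3.58.1 in R 4.3.3 (lmFit, eBayes without trend, no covariates, two-sided), with Benjamini-Hochberg adjustment over 57258 probe sets and a threshold of 0.05. Every adjusted p in the text is from this test or its named alternative. The median standard error was 0.08. The procedure was tested on simulated data.

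The members, lists and rule for naming genes were chosen with earlier results of these data known. Named were all CESA genes, all called members, the 3 brightest of each family, the extremes, and the 6 other wall genes with the smallest p. The mean over the control probe sets for Magnaporthe was taken as a level without target. Alternatives were the replicate block, trend, no moderation, quantile normalization, centring, a filter on dim probe sets, 1 probe set per gene, other choices of probe set, each array left out, and sro replicate 2 alone.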

Additional observations from a re-analysis of the deposited data

How the results depend on the processing

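All 13 called genes of the 42 kept their direction in all 207 values under the alternatives (their groups do not overlap, so leaving out arrays cannot turn it), and 6 kept the call in all 6 fits with 1 array fewer. Genes called lower numbered 10, against 14 with trend, 14 without dim probe sets, 14 with 1 probe set per gene, 5 without moderation and 5 to 10 with 1 array fewer. Genes called higher numbered 3, against 1 without moderation, 1 after quantile normalization, 5 with the probe set of smallest p, 0 with sro replicate 2 alone and 1 to 2 with 1 array fewer. Without moderation 5 of the 13 kept the call (CESA4, CSLA9, CSLC2, CSLE1 and Cel9E) and CSLA5 passed. Calls were gained by CSLA1 and CSLA5 with trend, without dim probe sets and with 1 probe set per gene, by CESA1 and CESA6 with trend, by CSLC7 and GLU11 without dim probe sets and with 1 probe set per gene, by GLU12 with 1 probe set per gene, by CSLA5 with centred arrays, and by CESA3 and CSLE2 with the probe set of smallest p. Other wall genes called numbered 8, against 11 with trend, 10 without dim probe sets, 10 with 1 probe set per gene, 5 with the replicate block, 4 without moderation, 1 with sro replicate 2 alone and 5 to 8 with 1 array fewer. Over all probe sets 8377 were called, against 10902 with trend, 9965 without dim probe sets, 4965 without moderation, 668 with sro replicate 2 alone and 4589 to 7907 with 1 array fewer. Deviations of same-numbered arrays from their group means correlated at -0.02, -0.03 and 0.00. No shared deviation by number was thus seen, which does not exclude that same-numbered samples were handled together. The replicate number as a block left 11 of the 13 called, with CESA5 (-0.41, adjusted p = 0.0554) and GLU15 (0.30, adjusted p = 0.0676) past the threshold no longer. With sro replicate 2 alone, only wild type gives the spread and few calls are possible. Among the 42 genes the choice of probe set turned the sign of CESA1 (-0.17, against 0.19 with the smallest p and 0.01 with the mean of its probe sets) and GLU12 (0.19, against -0.28, called, and -0.04). The mean of probe sets ended the call of CSLF6 (-0.20, adjusted p = 0.249) and made one for CESA3 (0.31, adjusted p = 0.0255). Under the other alternatives the sign turned in CESA7 (0.00 with sro replicate 2 alone, -0.05 to 0.02 with 1 array fewer), CSLD1 (0.00 after quantile normalization, -0.04 with sro replicate 2 alone, -0.01 to 0.08 with 1 array fewer), CSLC1 (-0.01 to 0.15 with 1 array fewer), CSLC9 (-0.07 to 0.00 with 1 array fewer) and in GLU5, GLU6, GLU10 and CSLC3, below the control level in both groups, none of which was called. Signal near the control level limits what the 12 genes below it can show.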
